A study of Rattus norvegicus with 30 samples.

Results

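The step from day 14 to day 16 without serum was the last in a series of durations of serum starvation in rat embryonic fibroblasts. It was taken as the 3 day 16 libraries against the 3 day 14 libraries, which makes 6 of the 30 libraries of the series, over every gene of the deposited table. That table lists 17353 gene symbols, of which 8940 had a mean of at least 1 FPKM over the 30 libraries and were tested. The cells were the untransformed REF line, a single line of embryonic fibroblasts. They were kept with serum (control) or without it for 2, 3, 4, 6, 8, 10, 12, 14 or 16 days, with 3 biological replicates for each of the 10 groups, and total RNA was sequenced. The day 14 and day 16 cells therefore shared the line and the serum withdrawal and differed by 2 further days. Levels are FPKM, which are fragments scaled by transcript length and library size, though the scaling used between these libraries is not given. Changes are differences of log2(FPKM + 1), day 16 minus day 14. Because of the added 1, a fold taken from this scale understates the change of a gene near 0.

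Fibroblasts that lose serum leave the cell cycle and enter quiescence, a resting state from which they can return. The series title concerns how deep this state is, that is, how hard it is for the cell to start dividing again. Serum carries growth factors and lipoproteins, and cells without lipoprotein cholesterol make their own through the mevalonate pathway, whose genes are switched on by the transcription factor SREBP2. Genes of DNA replication are driven by E2F factors that the retinoblastoma protein holds back in resting cells, and genes of mitosis are held back by the DREAM complex.

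FPKM sums over the 6 libraries ran from 643911 to 785072, and between 8734 and 8887 genes reached 1 FPKM in each. Read counts are not in the table, so absolute depth is unknown. The spacing of the lowest FPKM values put the first replicates of day 14 and day 16 at 1.91 and 1.99 times the depth of day 14 replicate 2, and the other libraries between 0.969 and 1.07 times. These 2 first replicates also stood apart from the other 4 on the first principal component of the deviations from the day means (-14.5 and -13.0 against 4.33 to 8.64, 28.7% of the variance), so counts of calls are also given from replicates 2 and 3 alone. Fibroblast markers reached 1 FPKM in 10 of 15 cases, Vim, Col1a1, Col3a1, Pdgfrb and Fn1 among them, while Col1a2, Thy1, Fbln1 and Fap were listed at 0 in all 6 libraries. Of 14 macrophage markers 9 were at 0 in all 6 and only Cd14 and Lyz2 passed 1 FPKM, with a sum of 1.64 to 2.15 FPKM on day 14 and 1.47 to 2.65 FPKM on day 16. Of 10 endothelial markers 5 were at 0 and Flt1 and Egfl7 passed 1 FPKM, with sums of 16.9 to 18.4 and 18.3 to 19.2 FPKM. A listed 0 may be a failed estimate, since ribosomal protein genes that all cells use, such as Rps6 and Rps9, were also listed at 0 in all 6 libraries. Of 5 melanocyte markers Mlana, Mitf and Gpnmb passed 1 FPKM, with overlapping sums of 84.7 to 108.1 FPKM on day 14 and 93.2 to 113.9 FPKM on day 16. The summed level of 12 neural and glial markers lay at 26.1 to 29.3 FPKM on day 14 and 29.9 to 35.3 FPKM on day 16, and that of 10 epithelial markers, almost all Krt8, at 49.0 to 62.3 and 62.2 to 75.8 FPKM. The part of these shifts in the results was not tested. In RNA from whole cultures, fewer cells of a type and less RNA per cell cannot be told apart.

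Between day 14 and day 16, 100 genes rose and 73 fell past an adjusted p of 0.05 in limma, 1.12% and 0.817% of the 8940 tested and 1.94% together. The median change over all tested genes was 0.01. Sterol and fatty acid genes made up 29 of the 73 that fell, out of 47 tested members of these lists. Cell cycle genes made up 29 of the 100 that rose, out of 98 tested. The falling genes were abundant and the rising ones scarce, with median day 14 levels of 59.5 and 4.32 FPKM, and 23 of the risers had a day 14 mean under 1 FPKM. A change of at least 2-fold was reached by 22 of the risers and 4 of the fallers. All 3 day 16 libraries lay on the same side of all 3 day 14 libraries in each of the 173 called genes, which over all tested genes was so for 8.27% in the upward and 6.36% in the downward direction. With each of the 6 libraries left out in turn, 31 of the risers and 33 of the fallers passed in every fit. The counts fell to 48 higher and 40 lower without day 16 replicate 1, to 49 and 48 without day 14 replicate 1, and to 17 and 39 with replicates 2 and 3 only, a fit in which 52 of the 173 genes passed.

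**Figure D1:**
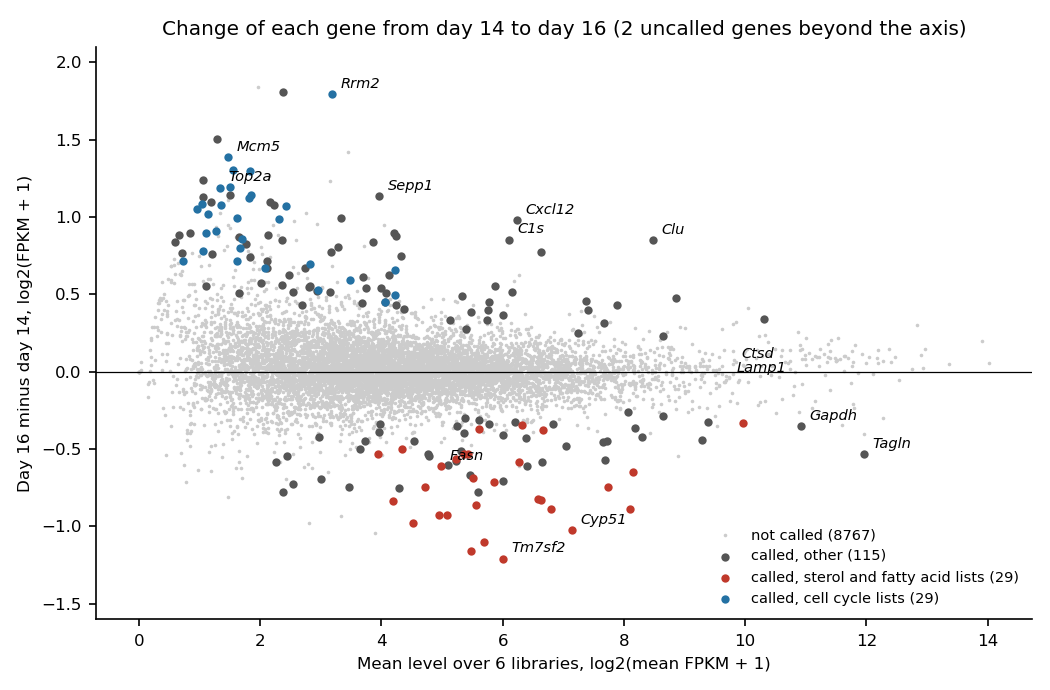
Each point is a gene, placed by its mean level over the 6 libraries (x axis, log2 of mean FPKM + 1) and its change from day 14 to day 16 (y axis, difference of log2(FPKM + 1)), with called sterol and fatty acid genes in red, called cell cycle genes in blue and other called genes in dark grey. The 29 red points all lie below 0 at moderate to high levels and the 29 blue points all lie above 0, most of them at low levels.

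Most genes of cholesterol synthesis fell. Of its 20 genes 17 fell and none rose, where 0.817% of all genes fell. In all 20 the 3 day 16 libraries lay below the 3 day 14 libraries, against 6.36% of all genes. The median change was -0.83, against 0.01 over all genes, and single genes ranged from -0.26 to -1.21. The mevalonate arm, which builds isoprenoid units from acetyl-CoA, had 7 of 8 genes lower with a median of -0.78, and the sterol arm, which joins and trims them into cholesterol, had 10 of 12 lower with a median of -0.85. Leaving out 1 library brought the count of 17 to between 14 (without day 16 replicate 1) and 17, and replicates 2 and 3 alone gave 16.

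Cyp51, the lanosterol demethylase, stood at 188, 189 and 186 FPKM on day 14 and at 82.6, 95.2 and 97.7 FPKM on day 16. Its day 14 libraries were nearly alike and every day 16 library lay far below them, a change of -1.02 ± 0.07 (SE, n = 3 per day, adjusted p = 1.36e-09). Tm7sf2, a sterol reductase of the same branch, had the largest fall of any gene called, from 80.2, 91.7 and 93.7 FPKM to 31.6, 44.5 and 37.9 FPKM. The days were far apart beside the spread within each, and the fall of 2.31-fold gave a change of -1.21 ± 0.11 (adjusted p = 1.39e-07). In the control cells Tm7sf2 was at 2.39 ± 0.244 FPKM (SD, n = 3), so that its day 16 mean was still 1593% of that level.

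Early in the mevalonate arm, Hmgcs1, which makes HMG-CoA, went from 125, 115 and 125 FPKM to 62.7, 66.5 and 76.9 FPKM (-0.82 ± 0.08, adjusted p = 2.66e-07). Acat2, which condenses acetyl-CoA, and Mvd, which makes isopentenyl diphosphate, fell more, by 1.10 and 1.16 on the log2 scale. Acat2 read 64.3, 73.9 and 70.4 FPKM on day 14 and 25.2, 31.4 and 40.7 FPKM on day 16. Mvd read 60.6, 58.9 and 61.8 FPKM and then 21.9, 32.3 and 26.2 FPKM. Day 16 replicate 1 was the lowest day 16 library in these 3 genes and in Cyp51 and Tm7sf2. Idi1, the isomerase of the pathway, changed by -0.98 ± 0.11, Fdps by -0.74 ± 0.08 and Mvk by -0.56 ± 0.09. Pmvk, the kinase between Mvk and Mvd, did not pass (57.3, 51.6 and 60.4 FPKM, then 35.2, 50.4 and 43.9 FPKM, adjusted p = 0.228).

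In the sterol arm, squalene epoxidase (Sqle) went from 149, 135 and 147 FPKM to 77.5, 79.8 and 74.3 FPKM and Msmo1, a C4 sterol oxidase, from 339.6, 360.0 and 362 FPKM to 168, 196 and 209 FPKM. Both changed by -0.89 ± 0.08. Nsdhl changed by -0.86, Dhcr7 by -0.83 and Lss by -0.53. Ebp and Sc5d, at -0.69 and -0.54, passed with all libraries but were lost without day 16 replicate 1 (adjusted p = 0.0819 and 0.155), and Ebp also without day 14 replicate 1 (0.0539), Sc5d also without day 14 replicate 3 (0.107) or day 16 replicate 2 (0.0511). Fdft1, which makes squalene, missed the threshold at -0.26 ± 0.07 (adjusted p = 0.0535), as did Hsd17b7 at -0.70 ± 0.20 (adjusted p = 0.0714). With the replicate number as a block both passed (adjusted p = 0.0253 and 0.00579).

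**Figure D2:**
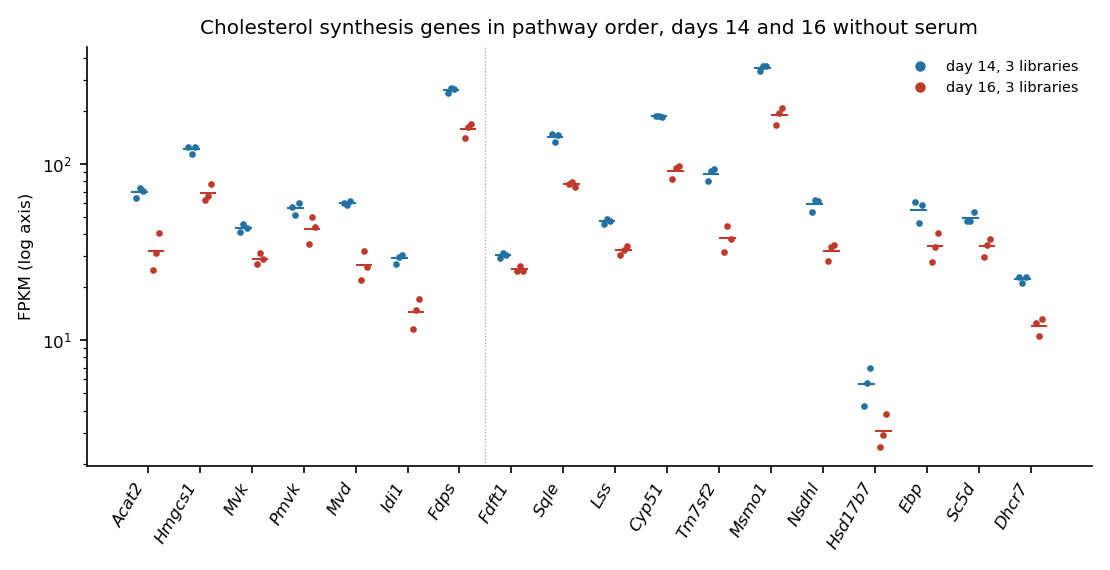
FPKM (log axis) of 18 of the 20 cholesterol synthesis genes in pathway order, mevalonate arm left of the dotted line, with a point for each of the 3 day 14 libraries (blue) and 3 day 16 libraries (red) and bars at the means. In every gene shown the 3 red points lie below the 3 blue ones, by most in Tm7sf2 and Mvd and by least in Fdft1.

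The promoters of Tm7sf2 and Idi1 are printed because they belong to the genes with large falls, and because the CCAAT box, the letters bound by NF-Y, a partner of SREBP2, stood in 12 of the 15 cholesterol synthesis genes that have an entry in the RefSeq promoter table (GRCr8 build). That is 80% against 34% of all 33469 promoters and 37.1% of tested genes, each read over 250 bases before the start on both strands. CCAAT was also in 52.6% of promoters of all called genes that fell and 46.7% of those that rose. With 78.1% of mitosis promoters holding it, the box was not particular to falling genes. One strict spelling of the sterol response element, TCACNCCAC, was in 0 of the 15 and in 0.974% of all promoters, which says only that these letters are not in these windows. A match is a description of letters, not a bound site. The sequences run 5′ to 3′ to the base before the start of the gene, with CCAAT in capitals, here as ATTGG, its complement on the other strand. Tm7sf2 lies on chr1:212789542-212789791 (minus strand) with its box 89 bases upstream, and Idi1 on chr17:66547525-66547774 (minus strand) with boxes 66 and 35 bases upstream.
Tm7sf2: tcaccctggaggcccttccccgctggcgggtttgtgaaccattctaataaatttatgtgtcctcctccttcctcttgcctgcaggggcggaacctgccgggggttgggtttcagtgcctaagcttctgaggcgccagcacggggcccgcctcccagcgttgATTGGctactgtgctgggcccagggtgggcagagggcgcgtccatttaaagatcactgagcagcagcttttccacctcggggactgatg
Idi1: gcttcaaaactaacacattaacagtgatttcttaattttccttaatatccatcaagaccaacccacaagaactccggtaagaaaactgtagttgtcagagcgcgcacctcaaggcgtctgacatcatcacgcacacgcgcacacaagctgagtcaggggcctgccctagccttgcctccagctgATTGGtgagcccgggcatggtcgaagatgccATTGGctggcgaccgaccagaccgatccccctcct

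Genes around cholesterol synthesis moved in part. Insig1, which holds SREBP in the endoplasmic reticulum and is itself an SREBP target, fell from 129, 124 and 126 FPKM to 63.0, 74.9 and 74.9 FPKM (-0.83 ± 0.08, adjusted p = 1.55e-07). Srebf2, the gene of SREBP2, changed by -0.37 ± 0.09 (adjusted p = 0.0173) and Npc2, which hands cholesterol out of the lysosome, by -0.33 ± 0.08 (adjusted p = 0.0260). Both were lost without day 16 replicate 1, at adjusted p of 0.111 and 0.180, and Srebf2 also without day 14 replicate 1 (0.134), Npc2 without day 14 replicate 2 or 3 (0.148 and 0.111) or day 16 replicate 3 (0.0547). In all, 4 of 12 tested genes of this list fell (33.3%, where 0.817% of all genes fell) and none rose. Scap and Npc1 did not pass, at 0.05 ± 0.10 and -0.13 ± 0.11, and Mylip, a ubiquitin ligase, had 0.37 ± 0.11 (adjusted p = 0.0868). The liver X receptor is a transcription factor whose targets export cholesterol. Of a list of its targets and export genes 5 were tested, 1 of them Nr1h2, the gene of a liver X receptor itself. Abca1, Abcg1 and Abcg5 of that list were under the filter and not tested. None of the 5 was called in limma, with 1 lower and 0 higher at an unadjusted p under 0.05. Over all 8940 genes, 346 were lower and 507 higher at that unadjusted p.

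Of 15 fatty acid synthesis genes 8 fell (53.3%, against 0.817% of all genes) and none rose, with a median of -0.34. Acss2, which makes acetyl-CoA from acetate, went from 33.5, 31.3 and 30.6 FPKM to 17.3, 19.96 and 18.5 FPKM (-0.74 ± 0.08, adjusted p = 2.89e-06). Fads2, a desaturase of polyunsaturated fatty acids, went from 41.8, 37.2 and 39.5 FPKM to 15.9, 22.6 and 23.2 FPKM (-0.93 ± 0.13, adjusted p = 9.21e-05). These and Acly, the ATP citrate lyase (-0.59 ± 0.10), passed whichever library was left out. The others, Fasn (-0.61), the desaturase Scd2 (-0.65), Acsl4 (-0.50), the citrate carrier Slc25a1 (-0.38) and Acsl3 (-0.34), were each lost without at least day 16 replicate 1, with adjusted p from 0.125 to 0.213. The count of 8 became 3 without that library, 4 without day 14 replicate 1 or 3 and 5 without any other. Outside the list, and named after their values were seen, Aacs, which activates acetoacetate for lipid synthesis (-0.75 ± 0.07), and Pcyt2 of phosphatidylethanolamine synthesis (-0.71 ± 0.11) also fell.

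A share of the cell cycle genes rose, from very low levels. In DNA replication and G1/S, 13 of 46 genes rose and none fell, where 1.12% of all genes rose. The median change was 0.41, 45 of the 46 lay above 0, and in 32 all day 16 libraries lay above all day 14 libraries. Over all 8940 genes, 4801 lay above 0 and 739 (8.27%) had every day 16 library above every day 14 library. In mitosis and cytokinesis, 13 of 38 rose and none fell, with a median of 0.78, all 38 above 0 and 30 without overlap. Levels remained far under those of dividing cells. The median day 16 level was 14.3% of control for replication genes, from 9.60% on day 14, and 2.50% for mitosis genes, from 0.715% on day 14. Of the 38 mitosis genes 24 had a day 14 mean under 1 FPKM, so these members passed the filter on low values only through other groups.

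Rrm2, the inducible subunit of ribonucleotide reductase, which supplies the building blocks of DNA, read 1.51, 3.17 and 4.82 FPKM on day 14 and 16.2, 14.3 and 8.68 FPKM on day 16. The lowest day 16 library lay above the highest day 14 library, and the change was 1.80 ± 0.29 (adjusted p = 0.000435). With replicates 2 and 3 only it was 1.30 and did not pass (adjusted p = 0.150). Control cells had 552 ± 54.8 FPKM of Rrm2, so day 16 held 2.36% of it. Mcm5, a subunit of the replicative helicase, read 0.257, 0.931 and 0.468 FPKM and then 2.88, 3.48 and 2.67 FPKM (1.39 ± 0.20, adjusted p = 0.000121). Gins1, of the complex that activates that helicase, read 1.56, 0.705 and 0.951 FPKM and then 4.18, 4.13 and 3.75 FPKM. Its rise of 1.30 ± 0.20 (adjusted p = 0.000399) was the only 1 of the 13 replication calls that held under every alternative, replicates 2 and 3 alone included. Mcm3 (1.07), the origin licensing factor Cdt1 (1.05) and Mcm6 (0.70) held, with Rrm2, Mcm5 and Gins1, whichever library was left out, though of these 6 only Gins1 and Cdt1 passed with replicates 2 and 3 alone. Uhrf1 (1.20), Gins4 (0.99), Ccne2 (0.72), Tk1 (0.59), Mcm4 (0.53), Rrm1 (0.49) and Mcm2 (0.45) were called but lost without 1 or more single libraries. E2f1, the transcription factor of the G1/S genes, read 7.13, 10.9 and 8.57 FPKM and then 13.7, 11.8 and 11.9 FPKM and did not pass (adjusted p = 0.102, and 0.0312 without day 14 replicate 2). Pcna, the sliding clamp of the polymerases and by far the most abundant of these, read 63.8, 72.9 and 70.2 FPKM and then 90.8, 81.5 and 74.8 FPKM (adjusted p = 0.193). Both had no overlap between days.

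Among mitosis genes, Top2a, the topoisomerase that untangles sister chromatids, read 0.227, 0.496 and 0.892 FPKM on day 14 and 3.36, 2.39 and 1.79 FPKM on day 16 (1.19 ± 0.27, adjusted p = 0.0135). Its call was lost without day 14 replicate 1 (0.0905) or day 16 replicate 1 (0.114). Ckap2, a spindle protein, read 1.15, 1.01 and 1.47 FPKM and then 4.51, 3.43 and 3.54 FPKM (1.12 ± 0.19, adjusted p = 0.00123). It was the single mitosis gene whose call held with each library left out, but not with replicates 2 and 3 only (adjusted p = 0.175). Prc1, Aurkb, Ndc80, Cdc20, Tpx2, Nuf2, Kif23, Racgap1, Nusap1, Ect2 and Bub1b, which act in the spindle, the kinetochore, the spindle checkpoint and cytokinesis, made up the other calls. Mki67, the source of the Ki-67 proliferation marker, read 0.123, 0.0925 and 0.330 FPKM and then 1.41, 0.721 and 0.699 FPKM, without overlap, and did not pass (adjusted p = 0.108, though 0.00497 and 0.0283 with pseudocounts of 0.1 and 0.5). Cyclin A2 (Ccna2) read 0.305, 0.716 and 0.361 FPKM and then 2.05, 1.66 and 0.789 FPKM (adjusted p = 0.167). Cdk1 overlapped between days, at 1.53, 3.17 and 3.84 FPKM and then 10.8, 6.18 and 3.57 FPKM (adjusted p = 0.202).

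The rise of mitosis genes differed between libraries of the same day. Day 16 replicate 1 was the highest of its day in 30 of the 38 genes and day 16 replicate 3 the lowest in 30, while day 14 replicate 1 was the lowest of its day in 25. Over all 8940 genes the same was so of 2145, 2672 and 4364. The 13 calls became 1 without day 16 replicate 1, 2 without day 14 replicate 1, 8 without day 16 replicate 2, and 0 with replicates 2 and 3 only, where the median change was 0.56. The 13 replication calls became 7 without day 16 replicate 1 and 2 with replicates 2 and 3 only, where the median was 0.35. Both medians stayed above 0 under each alternative run.

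**Figure D3:**
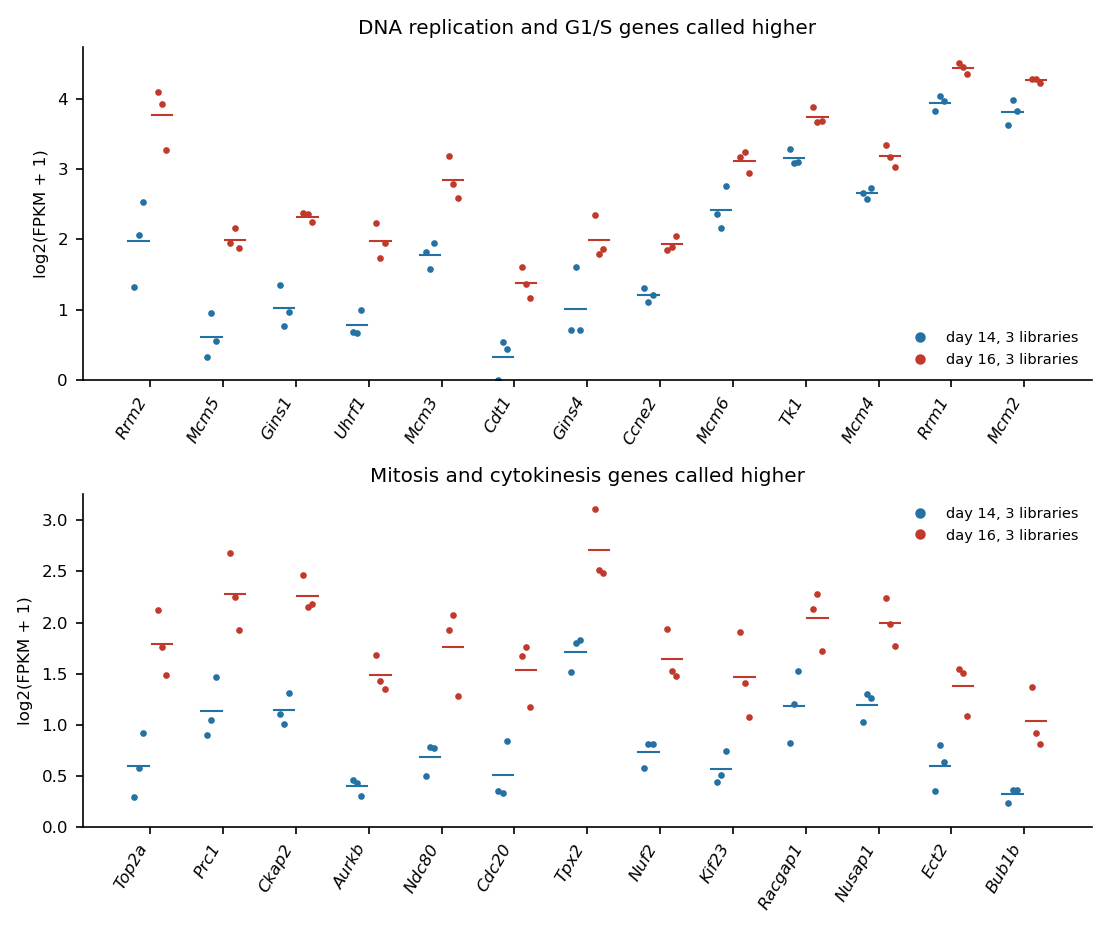
Levels as log2(FPKM + 1) of the 13 replication and G1/S genes (top) and the 13 mitosis and cytokinesis genes (bottom) that were called higher, with a point for each of the 3 day 14 (blue) and 3 day 16 (red) libraries in the order of replicate number and bars at the means. In each gene the red points lie above the blue ones, and in most mitosis genes the leftmost red point, day 16 replicate 1, is the highest.

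Mcm5 and Top2a promoters are shown as examples of the letters known for these classes. The E2F letters TTTCCCGC or TTTGGCGC were in 9 of 38 replication promoters (23.7%), 0 of 32 mitosis promoters and 1.21% of all promoters or 2.8% of those of tested genes. The CHR letters TTTGAA, bound by DREAM, were in 15 of 32 mitosis promoters (46.9%), 4 of 38 replication promoters (10.5%) and 16.2% of all promoters or 10.4% of those of tested genes. CCAAT was in 25 of the 32 mitosis promoters (78.1%). All were read on both strands over the same 250 bases, and a match is again only a description. In capitals are the E2F letters of Mcm5 (chr19:13488563-13488812, plus strand, 209 and 8 bases upstream) and the CHR letters of Top2a (chr10:84473094-84473343, minus strand, 22 bases upstream), each given on the strand of the gene.
Mcm5: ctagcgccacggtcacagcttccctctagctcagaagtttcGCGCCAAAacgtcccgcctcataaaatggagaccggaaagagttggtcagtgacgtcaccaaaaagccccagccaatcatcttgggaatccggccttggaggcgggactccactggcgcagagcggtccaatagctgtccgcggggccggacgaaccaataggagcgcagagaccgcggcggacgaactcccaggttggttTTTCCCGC
Top2a: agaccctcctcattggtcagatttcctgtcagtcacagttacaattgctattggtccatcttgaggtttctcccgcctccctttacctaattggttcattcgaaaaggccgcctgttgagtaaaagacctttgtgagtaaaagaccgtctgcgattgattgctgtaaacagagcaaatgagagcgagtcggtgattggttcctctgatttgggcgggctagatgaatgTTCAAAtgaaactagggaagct

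Other genes of dividing cells rose as well. Stmn1, the microtubule regulator stathmin, in no list and named after its values were seen, stood at 12.3, 11.1 and 12.0 FPKM on day 14 and at 27.3, 22.2 and 19.6 FPKM on day 16. The days were well apart, with a change of 0.90 ± 0.16 (adjusted p = 0.00204, and 0.0587 with replicates 2 and 3 only). Of 14 chromatin and histone genes of cycling cells 3 rose (21.4%, where 1.12% of all genes rose). They were the histone chaperone Asf1b (1.30 ± 0.23, adjusted p = 0.00156, and 0.222 with replicates 2 and 3 only), Lmnb1 (0.67) and Hmgb2 (0.66). The last 2 sat at the threshold (adjusted p = 0.0465 and 0.0471) and were lost without 5 and 6 of the 6 libraries. Of 15 cell cycle inhibitors, D cyclins and pocket proteins a single gene was called, Cdkn2c, the CDK4 and CDK6 inhibitor p18. It rose from 8.16, 10.4 and 9.19 FPKM to 15.2, 15.5 and 13.2 FPKM (0.61 ± 0.16, adjusted p = 0.0372), and did not keep its call, with adjusted p of 0.111 to 0.175, when the first or last day 14 library or the first or second day 16 library was left out. The p21 gene Cdkn1a had -0.39 ± 0.13 (adjusted p = 0.184, and 0.00367 with the replicate block), the p27 gene Cdkn1b 0.19 ± 0.10 (adjusted p = 0.659) and Ccnd1 0.15 ± 0.10 (adjusted p = 0.778). Named after its values were seen, Knstrn, a kinetochore and spindle gene, went from 0.0731, 0.282 and 0.420 FPKM to 3.59, 2.18 and 2.07 FPKM.

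Several genes of secreted proteins were among the risers, named one by one and not as a list. Cxcl12, the chemokine that binds CXCR4, read 43.3, 57.7 and 49.2 FPKM on day 14 and 97.5, 100.5 and 99.1 FPKM on day 16. Its day 16 libraries were nearly alike, and the rise of 0.98 ± 0.08 (adjusted p = 6.37e-08) held under every alternative. The complement protease C1s read 42.4, 48.9 and 52.5 FPKM and then 82.5, 91.3 and 87.5 FPKM (0.85 ± 0.11, adjusted p = 4.16e-05). Its partner C1r, more abundant, read 354, 397 and 406 FPKM and then 543, 512 and 553 FPKM (0.48 ± 0.06, adjusted p = 7.43e-06, and 0.0717 with the libraries of the compared days only). These were 2 of the 4 complement genes tested (50%, where 1.12% of all genes rose). Clu, the extracellular chaperone clusterin, read 241, 268 and 254 FPKM and then 501, 466 and 414 FPKM (0.85 ± 0.11, adjusted p = 1.64e-05).

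Sepp1, the selenium carrier selenoprotein P, read 7.27, 11.1 and 7.97 FPKM and then 19.2, 24.7 and 17.2 FPKM (1.13 ± 0.21, adjusted p = 0.00219, and 0.0680 with replicates 2 and 3 only). In control cells it was at 0.0358 ± 0.0357 FPKM. Fmod, the collagen-binding proteoglycan fibromodulin, read 1.35, 2.30 and 1.71 FPKM and then 6.56, 5.94 and 2.96 FPKM (1.10 ± 0.19, adjusted p = 0.00112, and 0.217 with replicates 2 and 3 only), with day 16 replicate 3 well under the other 2. Srpx2 (0.84 ± 0.12) and the matricellular Smoc1 (0.78 ± 0.18) rose, Smoc1 with its call lost without day 14 replicate 1 (adjusted p = 0.110) or any day 16 library (0.0539 to 0.0908). Col3a1, a fibrillar collagen, rose by 1.27-fold, from 1070.4, 1115 and 1159.5 FPKM to 1472, 1417 and 1347 FPKM (adjusted p = 0.0110). That call was lost without day 14 replicate 1 (0.0637) or day 16 replicate 1 (0.0868). It was also lost with equal library sums, quantile normalization, the libraries of the compared days only and replicates 2 and 3 only. Col3a1 was 1 of 9 collagen genes, the most abundant other one, Col1a1, not passing (0.41 ± 0.13, adjusted p = 0.117). Of 21 tested factors of the senescence-associated secretory list 2 rose (9.52%, where 1.12% of all genes rose), Cxcl12 and the macrophage growth factor Csf1 (0.33 ± 0.07), with a list median of 0.12. Csf1 held with each library left out but was lost with equal library sums and with the libraries of the compared days only. Of 18 interferon response genes 2 rose (11.1%), Ifitm3 (0.55 ± 0.14) and Gbp2 (0.56 ± 0.14). Both of these last calls were lost in 5 of the 6 fits with 1 library left out, all but the one without day 16 replicate 3 for Ifitm3 and day 14 replicate 2 for Gbp2 (adjusted p up to 0.218 and 0.235).

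Il1rl1, the receptor of interleukin 33 and a growth-induced gene of fibroblasts, read 4.14, 7.03 and 6.00 FPKM and then 10.8, 10.0 and 10.1 FPKM (0.77 ± 0.15, adjusted p = 0.00295). Aox1, an aldehyde oxidase, rose by 0.81 ± 0.13, and 3 aldo-keto reductases of the Akr1c family rose, Akr1c14 by 0.99, Akr1c19 by 0.88 and Akr1c13 by 0.88, though reads of such near-identical genes may be shared out between them. Akr1c13 was lost without day 14 replicate 1 (0.0617) or day 16 replicate 1 (0.0808), and none of the 3 passed with replicates 2 and 3 only (adjusted p from 0.103 to 0.233). Clec2dl1, a lectin-like gene with close copies, had the largest rise of any called gene (1.81 ± 0.33) and the same doubt. Slc40a1, the iron exporter ferroportin, read 2.07, 2.55 and 2.40 FPKM and then 4.25, 4.19 and 4.51 FPKM (0.67 ± 0.14, adjusted p = 0.00626, and 0.0512 without day 14 replicate 1).

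A few contractile genes fell. Of 25 genes of the actin cytoskeleton and of SRF and YAP targets 4 fell and 1 rose, with a median of -0.21. These are 16% and 4%, against 0.817% and 1.12% of all genes. Tagln, the smooth muscle protein SM22, read 4815, 4952 and 4419 FPKM and then 3169, 3342 and 3268 FPKM (-0.54 ± 0.10, adjusted p = 0.00345). Cnn1, calponin, read 118, 117 and 121 FPKM and then 71.3, 82.9 and 83.0 FPKM (-0.58 ± 0.08, adjusted p = 0.000106). Myl9, the regulatory light chain, changed by -0.44 ± 0.08, and these 3 held with each library left out. Tagln was lost with quantile normalization, and both Tagln and Myl9 with the libraries of the compared days only. Cnn1 passed in every alternative. Lmod1, an actin nucleator, was the fourth (-0.30 ± 0.08), lost without any single library but day 14 replicate 2 (adjusted p from 0.0635 to 0.287). The gene that rose was Ankrd1, a YAP target, from 11.3, 12.9 and 14.4 FPKM to 17.4, 20.1 and 18.6 FPKM (0.51 ± 0.10, adjusted p = 0.00504, and 0.0543 without day 14 replicate 1). Acta2, smooth muscle actin, read 3297, 3536 and 3506 FPKM and then 2385, 2874 and 2893 FPKM and did not pass (-0.35 ± 0.13, adjusted p = 0.239), but passed with the replicate block (0.0146), with equal library sums (0.0165) and with quantile normalization (0.0234). Of 12 skeletal muscle genes a single gene was called, Casq2, the calcium store protein calsequestrin, which went from 142, 155 and 159.6 FPKM to 98.5, 111 and 118 FPKM (-0.48 ± 0.09, adjusted p = 0.00489, and 0.0568 without day 16 replicate 1). Outside that list, and named after its values were seen, the skeletal myosin heavy chain Myh1 fell from 75.2, 51.5 and 54.4 FPKM to 32.9, 33.0 and 37.2 FPKM (-0.78 ± 0.15, adjusted p = 0.00345). The Myh1 call was lost with replicates 2 and 3 only (0.0614) and with the libraries of the compared days only. Tgfb3, the transforming growth factor, fell from 253, 215 and 227 FPKM to 163, 171 and 171 FPKM (-0.45 ± 0.09, adjusted p = 0.00453, and 0.0961 with replicates 2 and 3 only).

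Of 15 glycolysis genes 3 fell (20%, against 0.817% of all genes) and none rose, with a median of -0.23. Eno3, an enolase outside the list and named after its values were seen, rose by 0.39 (adjusted p = 0.0342). That call was lost in 5 of the 6 fits with 1 library left out. Gapdh, often used as a reference gene, read 2272, 2162 and 2107 FPKM and then 1631, 1776 and 1724 FPKM (-0.35 ± 0.08, adjusted p = 0.0105). Gpi changed by -0.36 ± 0.07 (adjusted p = 0.00492) and Pgk1 by -0.33 ± 0.08 (adjusted p = 0.0210). Gpi held with each library left out though not with replicates 2 and 3 only (0.0680), while Gapdh was lost without day 14 replicate 1 (0.0632) or day 16 replicate 1 (0.0868) and Pgk1 without any library but day 16 replicate 3 (0.0524 to 0.214). Of 26 genes of the integrated stress response 2 fell (7.69%), Atf4 (-0.29 ± 0.08, adjusted p = 0.0452) and the amino acid transporter Slc7a5 (-0.39 ± 0.10, adjusted p = 0.0413). Both calls were lost whichever library was left out.

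Lysosomal genes, which the series title concerns, had few calls and small changes. Of 44 hydrolases and membrane proteins 2 rose and 1 fell (4.55% and 2.27%, against 1.12% and 0.817% of all genes), with a median of 0.01 and a range of -0.33 to 0.32. Lamp1, of the lysosomal membrane, read 881, 842 and 849 FPKM and then 880.0, 797 and 822 FPKM (-0.04 ± 0.08), and Ctsd, a protease of the lumen, 853, 894 and 876 FPKM and then 890.3, 920.0 and 905 FPKM (0.05 ± 0.06). The rises were those of the protease Ctsh (0.32 ± 0.08, lost without day 14 replicate 1 or any day 16 library) and of Man2b1 (0.25 ± 0.07, lost without any single library), and the fall that of Npc2. Gm2a, a lysosomal activator protein outside the list and named after its values were seen, rose by 0.40 ± 0.09 (adjusted p = 0.0172), lost without day 14 replicate 1 (0.134) or day 16 replicate 2 (0.105). None of 18 vacuolar ATPase genes passed in limma (0 at an unadjusted p under 0.05 in either direction), and none of 40 autophagy genes (1 higher and 2 lower at an unadjusted p under 0.05). None of 68 cytosolic ribosomal protein genes passed, with 2 higher and 0 lower at an unadjusted p under 0.05, and none of 39 respiratory chain genes, with 1 each way. No call was made either among 31 proteasome, 29 splicing factor and 32 ribosome biogenesis genes, of which none had an unadjusted p under 0.05. Over all 8940 genes, 507 were higher and 346 lower at that unadjusted p.

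The step was set against the steps before it. The 2 days from day 12 to day 14 share the day 14 libraries with it, so their values are given side by side and no likeness is drawn from them. In that step 104 genes rose and 216 fell (1.16% and 2.42%). Cholesterol synthesis had 19 of 20 genes lower there with a median of -0.68, against 17 and -0.83 in the last step. Replication and mitosis genes had medians of 0.03 and 0.13 there, with 1 and 0 called higher, against 0.41 and 0.78. The test of the difference between the 2 steps, gene by gene, called 1 gene higher and 0 lower (0.0112% and 0% of all), with 228 and 74 at an unadjusted p under 0.05. No replication, mitosis or cholesterol gene was called as different between these steps. The 1 call was Edn1, the vasoconstrictor peptide endothelin 1, which was singled out after its values were seen. It fell from a mean of 6.82 FPKM on day 12 to 3.59, 3.16 and 3.32 FPKM on day 14 and then rose to 5.64, 6.13 and 5.37 FPKM on day 16 (adjusted p of the last step = 0.00885, and 0.0546 without day 16 replicate 2; difference of steps 1.47 ± 0.23, adjusted p = 0.0105). Without any single day 14 library the difference did not pass (adjusted p = 0.0584, 0.226 and 0.150).

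The step from day 10 to day 12 is of the same length and shares no library with the last one. In it 110 genes rose and 191 fell (1.23% and 2.14%). Against it, 59 genes had a higher and 41 a lower change in the last step (0.66% and 0.459%), and 116 and 78 with the replicate number as a block. Of the 20 cholesterol genes 9 had a lower change, their median having been -0.31 from day 10 to day 12. Of the 46 replication genes 7 had a higher change, Rrm2 among them (difference 2.11 ± 0.40, adjusted p = 0.00654), as had 2 of the 38 mitosis genes. Medians of these lists from day 10 to day 12 were 0.01 and -0.03.

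**Figure D4:**
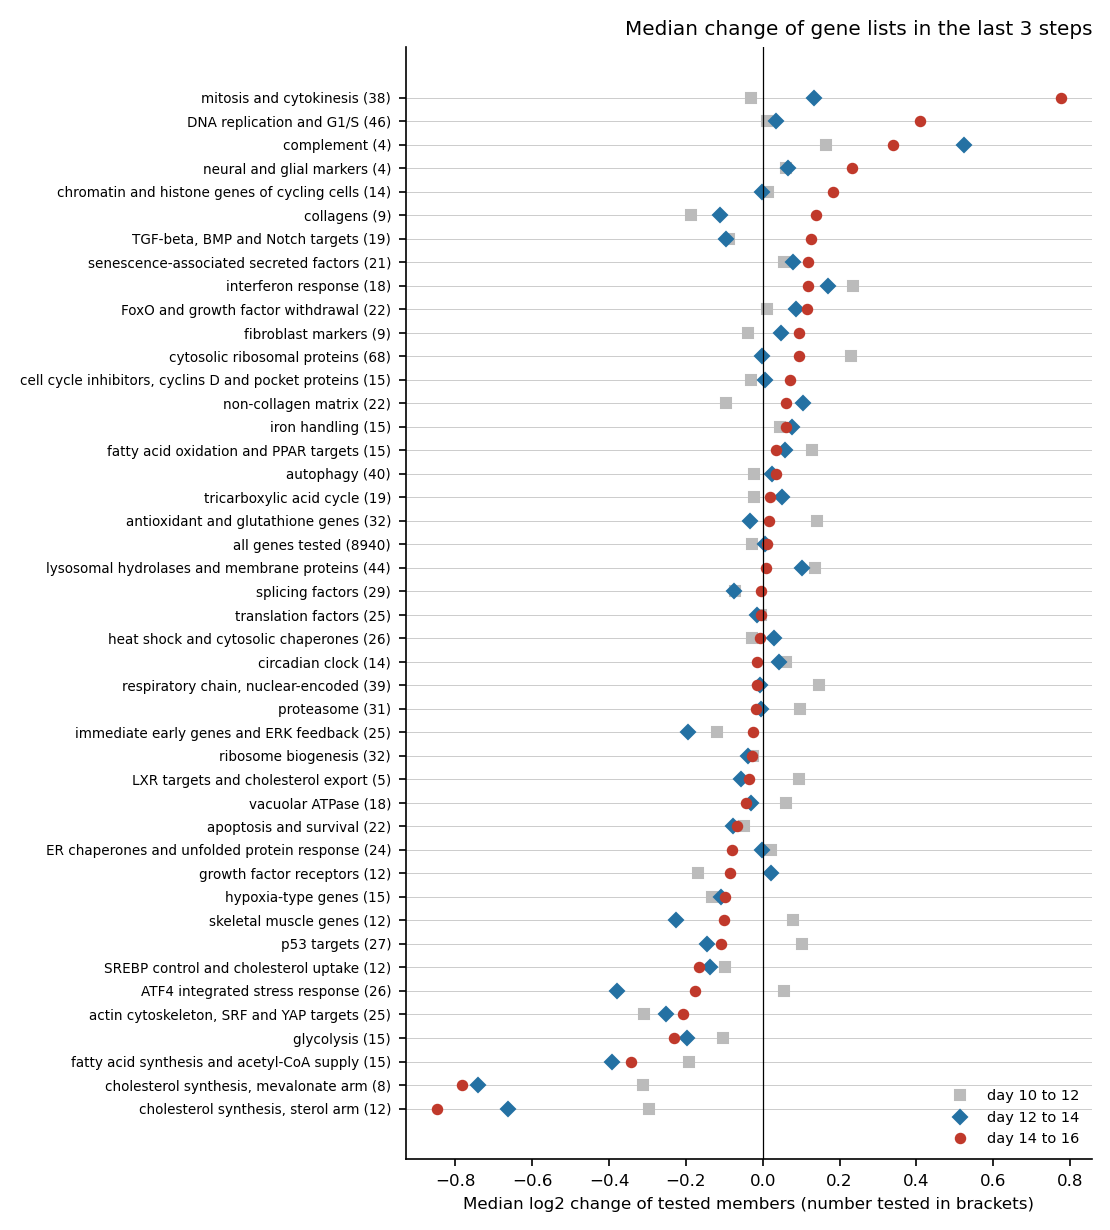
Median log2 change of the tested members of each gene list (rows, number of members in brackets) in the steps from day 10 to 12 (grey squares), day 12 to 14 (blue diamonds) and day 14 to 16 (red circles), the last 2 sharing the day 14 libraries. The cell cycle lists stand at the top, with red circles at 0.78 and 0.41 and the other symbols between -0.03 and 0.13, and both cholesterol arms at the bottom, with all 3 symbols below 0.

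The last step was then set in the whole course. Cyp51 had a mean of 73.7 FPKM in control, 419 on day 2, 322 on day 12, 188 on day 14 and 91.9 on day 16. Day 16 means were below control for 8 of the 20 cholesterol genes, against 3 on day 14, and below day 2 for all 20. Of the 73 genes that fell in the last step, 58 (79.5%) had risen from control to day 2, where 30% of all tested genes rose, and 8 (11%) had fallen. These 58 were 2.16% of the 2680 genes that rose at day 2. Of the 100 that rose in the last step, 48 had fallen at day 2, where 30.7% of all genes fell, and 38 had risen. Of these 100, 23 had a day 14 mean under 1 FPKM and so passed the filter on low values only through other groups. How far that filter sets the count of 48 was not tested. Control and day 2 libraries are not among those of the last step. Not every riser was a gene lost at entry: C1s was at 6.56 FPKM in control, 8.04 on day 2 and 16.1 on day 12 before 47.9 on day 14 and 87.1 on day 16, and Cxcl12 fell from 219.9 on day 2 to 20.8 on day 12 before its rise.

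**Figure D5:**
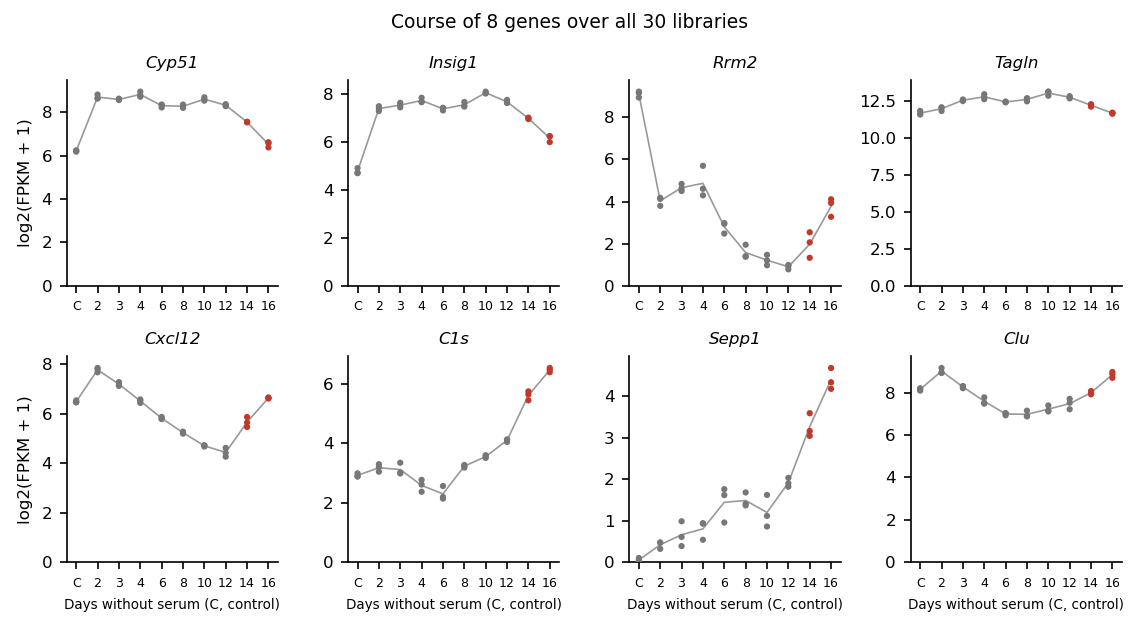
Levels as log2(FPKM + 1) of 8 genes in all 30 libraries, 3 per group, over control (C) and 2 to 16 days without serum, with a grey line through the group means and the day 14 and day 16 libraries in red. Cyp51, Insig1 and Tagln fall over the last days, Rrm2 and Cxcl12 rise from a low at day 12, and C1s and Sepp1 climb through the late days.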

How the data were processed

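RNA from 30 libraries (REF cells, 10 groups of 3) was sequenced, and the authors deposited 1 table of FPKM values per gene symbol and library. Per the submitters' processing notes, TopHat2 2.1.1, Cufflinks and Cuffnorm 2.2.1 were used with the rn6 build. The annotation and the scaling between libraries are not given in the sources used here, and with no counts in the table the depth is unknown. From the FPKM, log2(FPKM + 1) was fitted for all genes with a mean of at least 1 FPKM by limma 3.58.1 (R 4.3.3), with 10 group means, a mean-variance trend and Benjamini-Hochberg adjustment over all 8940 genes. Adjusted p-values under 0.05 were called. The fit gave day 16 minus day 14 and the differences of that step from the steps of day 12 to 14 and day 10 to 12. Comparisons of single genes rest on 3 libraries per day. The code was tested on simulated data.

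The members and gene lists were chosen with earlier results of these data known. Named genes were the 12 with the largest changes in each direction among called, non-overlapping genes with a mean of at least 5 FPKM in the 6 libraries, the 4 with the smallest p in each list, a set of well-known genes of the cycle, lysosome and sterol pathway, and the 5 largest in each direction for each difference of steps. Other named genes are list members or were chosen after their values were seen. Deviations from the day means of same-numbered day 14 and day 16 libraries correlated at 0.587, 0.323 and 0.446. Unlike-numbered libraries were not compared, and the first replicates of both days also shared a higher estimated depth. Whether the replicate numbers pair the samples was therefore not tested, and the main fit used no replicate block. Alternatives were the pseudocount, the filter, 3 rescalings, the replicate block, no trend, the libraries of the compared days only, replicates 2 and 3 only, and each library left out. Promoter sequences are from RefSeq (GRCr8), another build than that of the FPKM, and were matched by symbol. Values of a few single genes are not reported here, although those genes stay in the fit and in the counts of their lists.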

Additional observations from a re-analysis of the deposited data

Results flagged for a closer look

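Each gene here had a change from day 14 to day 16 that differed, in limma's test of the difference, from its change in an earlier step of the same length. Differences are given as the last step minus the earlier one, on the log2(FPKM + 1) scale.

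Against the step from day 12 to day 14, which shares the day 14 libraries, 1 gene was singled out. Edn1 differed by 1.47 (SE 0.23, adjusted p = 0.0105), from -0.84 in the earlier step to 0.63 in the last.

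Against the step from day 10 to day 12, which shares no library, 59 genes had a higher and 41 a lower change, and the 9 given here were picked among them by the rule for named genes. Among the genes called in the last step, Rrm2 differed by 2.11 (adjusted p = 0.00654), from -0.31 to 1.80, and Il1rl1 by 1.5 (adjusted p = 0.00014), from -0.73 to 0.77. Tm7sf2 differed by -1.50 (adjusted p = 3e-06), from 0.29 to -1.21. The others turned mainly on the earlier step. Cyr61, a YAP target, differed by 1.27 (adjusted p = 1.53e-06), from -1.50 to -0.24, and the transcription factor Snai2 by 1.29 (adjusted p = 0.0305), from -0.77 to 0.52. Chac1, a stress response gene, differed by -1.28 (adjusted p = 0.000503), from 0.78 to -0.50. Cox6a2, a muscle form of a respiratory subunit, differed by -2.84 (adjusted p = 0.0285), from 1.80 to -1.04. Ifi27l2b differed by -1.004 (adjusted p = 0.0491), from 1.03 to 0.03, and Pianp by -1.001 (adjusted p = 0.0419), from 0.88 to -0.12.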

How the results depend on the processing

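No named value changed sign in a call under any alternative, and 25 of the 173 called genes passed in all of them. The 100 higher and 73 lower genes were 20 and 26 with the libraries of the 2 days only, 17 and 39 with replicates 2 and 3 only, and 143 and 109 with the replicate block, which kept all 173. Rescaling to equal sums gave 65 higher, and left-out libraries gave 48 to 95 higher and 40 to 57 lower. The share of calls that were higher was 57.8%, and 48.9% to 60% under the rescalings. The 17 cholesterol calls ranged from 13 to 19 over all alternatives and from 14 to 17 over left-out libraries. Fatty acid calls, 8, were 4 with the compared days only, 5 with replicates 2 and 3 and 3 to 5 over left-out libraries. The 13 replication calls were 8 with equal sums, 3 with the compared days only, 2 with replicates 2 and 3 and 7 to 11 over left-out libraries. The 13 mitosis calls were 2 with the compared days only, 0 with replicates 2 and 3 and 1 to 17 over left-out libraries. Against day 12 to 14, the 1 higher call was 0 with equal sums, the compared days only or replicates 2 and 3, and 0 to 2 over left-out libraries. The count lower, 0, was 3 without the filter and 0 over left-out libraries. Against day 10 to 12, the 59 higher and 41 lower calls were 116 and 78 with the replicate block, 19 and 14 with the compared days only, and 20 and 13 with replicates 2 and 3. Equal sums gave 27 lower, and left-out libraries gave 27 to 68 higher and 18 to 55 lower. Fewer libraries were fitted in the smaller sets, and the fit with replicates 2 and 3 only also leaves out the first replicates. The cause of these shifts was not tested. Changes of genes under 1 FPKM rest on few reads of unknown number.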
